A study of Oryza sativa with 4 samples.

Results

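Among rice genes, 9 loci of the type-A response regulator family, chosen by locus number, were followed through polysomal RNA of seedlings with and without salt. The choice was made with earlier results of these data known. All 9 were found among the 51250 loci that had an annotated transcript, and they accounted for 15 of the 89715 assembled rows of the expression table. Of these 15 rows, 10 matched an annotated transcript, 3 were splice variants of one, 1 overlapped a member exon on the same strand and 1 lay opposite a member exon. Each locus was represented by its annotated transcript with the highest mean level. The file annotates 8 of the loci as type-A response regulators by name and calls the remaining one, Os12g04500, a response regulator receiver domain containing protein.

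The study set 4 polysomal libraries beside each other. The treated plants were approximately 24-day-old whole seedlings of the salt-tolerant landrace Pok (Pokkali) and of the salt-sensitive genotype IR29, grown in Yoshida medium and given 150 mM NaCl for 24 h. Control seedlings of each genotype stayed in plain Yoshida medium. RNA was taken from sucrose gradient fractions in which messages carried more than 2 ribosomes, and each genotype and treatment gave 1 library, which the methods describe, for total RNA, as a pool of equal amounts from 3 biological replicates. With 1 library per condition, the salt ratio of 1 genotype and the difference between genotypes have no spread to test against, so each such ratio compares libraries, and the effect of genotype or salt and that of the library cannot be told apart. Libraries of total RNA are not analysed here, so a different message level and a different loading onto polysomes cannot be told apart. In whole seedlings, fewer cells of a type and less RNA per cell cannot be told apart either.

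Cytokinins are plant hormones that promote cell division and shoot growth and restrain root growth. They are bound by membrane histidine kinases, which pass a phosphate through small phosphotransfer proteins to response regulators in the nucleus. Type-B response regulators carry a DNA-binding domain and switch on target genes, and among the first of these targets are the genes of the type-A regulators. Type-A regulators consist of little more than the phosphate-accepting receiver domain and feed back to dampen the pathway, so their messages are widely used as a readout of cytokinin signalling. In rice, mutants that lack the OsRR9 and OsRR10 pair are known to tolerate salt better than wild type.

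Levels are given in FPKM (fragments per kilobase of transcript, scaled to the mapped fragments of the library), which corrects for transcript length, so members can be set beside each other. A transcript was considered in a comparison when 1 of its 2 libraries reached 5 FPKM, and it was called higher or lower when the ratio of FPKM was at least 2. The log2 ratios given are of FPKM plus 1 and are therefore smaller in size than the ratio of FPKM for low values.

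The summed polysomal level of the 9 members was lower with salt in both genotypes. The sum was 30.9 FPKM in IR29 salt against 72.7 FPKM in IR29 control, which was 2.35-fold lower. In Pok, the sum was 36.7 FPKM in the salt library against 63.4 FPKM in the control library, which was 1.73-fold lower. The members did not move as a block. OsRR6 had similar levels in salt and control libraries, and it made up 34.99% of the sum in Pok salt against 23.1% in Pok control, and 31.3% in IR29 salt against 13.0% in IR29 control.

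**Figure D1:**
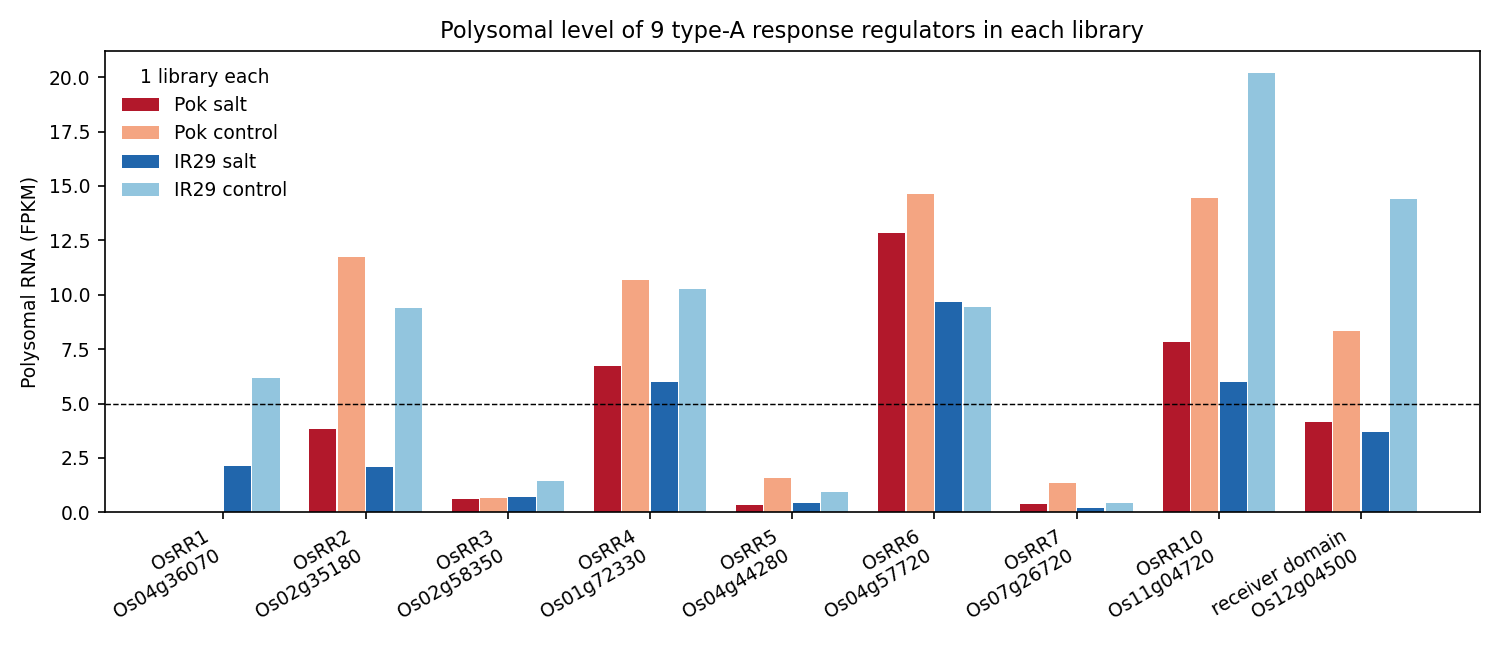
Polysomal level in FPKM (y axis) of the 9 type-A response regulators (x axis) in each of the 4 libraries, 1 bar per library with no error bar because each condition had 1 library; the dashed line marks 5 FPKM. Salt bars stand below control bars of the same genotype for OsRR2, OsRR4, Os11g04720 and Os12g04500, whereas OsRR6 keeps a similar height and OsRR1 has no bar in Pok.

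In IR29, 6 of the 9 members were considered, and 4 of these were lower in the salt library and 0 higher. Among all 11119 annotated transcripts considered in IR29, 5.96% were lower and 19.1% higher. Of the 6 members, 3 reached 5 FPKM in the control library only, and such a transcript could be called in no direction but lower. The log2 ratio was below 0 in 8 of the 9 members with a median of -0.69, whereas the median of all transcripts considered was 0.31. In Pok, 5 members were considered, and 2 were lower and 0 higher, beside 5.61% lower and 15.7% higher among the 11551 annotated transcripts considered. Of these 5, 2 reached 5 FPKM in the control library only. All 8 members with a value above 0 in Pok had a log2 ratio below 0, and the median of the 9, with OsRR1 counted at 0, was -0.77 beside 0.10 for all transcripts considered. After centring on the median ratio of all transcripts, 5 members were lower and 0 higher in IR29, beside 9.22% lower and 13.8% higher of all transcripts, and 2 were lower and 0 higher in Pok, beside 6.35% and 14.7%.

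A salt effect shared by both genotypes could be fitted with genotype as a block (limma on log2 of FPKM plus 1). Per transcript this leaves 1 residual degree of freedom, namely the disagreement between genotypes. To it, limma adds a variance estimated over all transcripts fitted, with a weight of 11.1 prior degrees of freedom. The SE and p-values below therefore rest mostly on that shared variance rather than on the member itself. This fit was added after the values were seen. It took the 5 members that were above 0 in all libraries and reached 5 FPKM in one. Of these, OsRR2 and Os12g04500.1 reached 5 FPKM in the control libraries only, so they entered through the side where they were high. Reads may be shared between Os11g04720.2 and Os12g04500.1, so their results are not separate. OsRR2 had a shared log2 difference of -1.58 ± 0.309 (SE, limma adjusted p = 0.00554), Os12g04500.1 one of -1.29 ± 0.307 (adjusted p = 0.0168) and Os11g04720.2 one of -1.20 ± 0.274 (adjusted p = 0.0132), with the lower value in the salt library of both genotypes. OsRR4 had -0.64 ± 0.262 (adjusted p = 0.138) and OsRR6 -0.07 ± 0.249 (adjusted p = 0.880). Among all 12032 transcripts fitted, 1.74% were lower and 10.1% higher at an adjusted p under 0.05. After median centring of the libraries 0 members passed, the lowest adjusted p being 0.0638, so these calls depend on the scaling.

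OsRR2 (Os02g35180.1, chromosome 2, 21122752 to 21125591 in the MSU v6.1 coordinates of its assembled locus) had a log2 ratio of larger size than the other members considered in both genotypes, in IR29 by a small margin over Os12g04500.1 that turned with a pseudocount of 5 (-1.02 for OsRR2 against -1.16). This gene is known in rice as a target of the crown root regulator WOX11. It had 2.09 FPKM in IR29 salt against 9.38 FPKM in IR29 control, and 3.81 FPKM in Pok salt against 11.7 FPKM in Pok control. Both salt libraries thus lay below both control libraries, by 4.49-fold in IR29 (log2 ratio -1.75) and 3.08-fold in Pok (log2 ratio -1.40). The 2 assembled splice variants of the same locus had lower levels. The first had 0.815 FPKM in IR29 salt against 4.86 FPKM in IR29 control, and 2.12 FPKM in Pok salt against 2.46 FPKM in Pok control. The second had 0.364 FPKM in IR29 salt against 3.80 FPKM in IR29 control, and 1.49 FPKM in Pok salt against 2.91 FPKM in Pok control. The variants therefore differed in IR29 by 5.96-fold and 10.4-fold, and in Pok by only 1.16-fold and 1.95-fold, all lower with salt and all below 5 FPKM.

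The related loci on chromosomes 11 and 12 were the highest members in IR29 control. Os11g04720.2 (chromosome 11, 2009106 to 2014000), which the file names OsRR10, had 5.996 FPKM in IR29 salt against 20.2 FPKM in IR29 control, and 7.83 FPKM in Pok salt against 14.4 FPKM in Pok control. It was 3.37-fold lower in IR29 (log2 ratio -1.60), and its ratio in Pok, 1.84-fold lower (log2 ratio -0.80), stayed under the limit. Its second annotated transcript, Os11g04720.1, had 0.505 FPKM in IR29 salt and 0.569 FPKM in IR29 control and was listed at 0 in both Pok libraries. Os12g04500.1 (chromosome 12, 1914689 to 1919779) had 3.67 FPKM in IR29 salt against 14.4 FPKM in IR29 control, and 4.15 FPKM in Pok salt against 8.31 FPKM in Pok control. That made it 3.93-fold lower in IR29 (log2 ratio -1.72) and 2.00-fold lower in Pok (log2 ratio -0.86), in Pok just past the limit.

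These loci lie in the near-identical duplicated ends of chromosomes 11 and 12, where reads may match both copies, and how such reads were divided is not given in the sources used here. The split between the 2 loci is therefore uncertain, whereas their sum is less so. Summed, they had 9.67 FPKM in IR29 salt against 34.6 FPKM in IR29 control (3.58-fold lower), and 11.98 FPKM in Pok salt against 22.7 FPKM in Pok control (1.898-fold lower). The chromosome 11 transcript was above its chromosome 12 counterpart in every library, by 1.89-fold in Pok salt, 1.74-fold in Pok control, 1.63-fold in IR29 salt and 1.40-fold in IR29 control. The names are not settled either, since RefSeq gives OsRR9 to a chromosome 11 gene and OsRR10 to a chromosome 12 gene. Of the 8 members named in the file, 7 names were found in RefSeq, 6 of them on the same chromosome, and OsRR3 was not matched.

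The genes next to the pair were read as a local comparison, since they are duplicated in the same way. Both neighbours encode RPABC1, a subunit shared by the RNA polymerases. Os11g04730.1 had 14.0 FPKM in Pok salt and 12.4 FPKM in Pok control, and 14.8 FPKM in IR29 salt and 13.3 FPKM in IR29 control. Os12g04510.1 had 11.9 FPKM in Pok salt and 11.4 FPKM in Pok control, and 11.8 FPKM in IR29 salt and 11.9 FPKM in IR29 control. The neighbours thus stayed level across the libraries in which the regulators beside them differed.

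**Figure D2:**
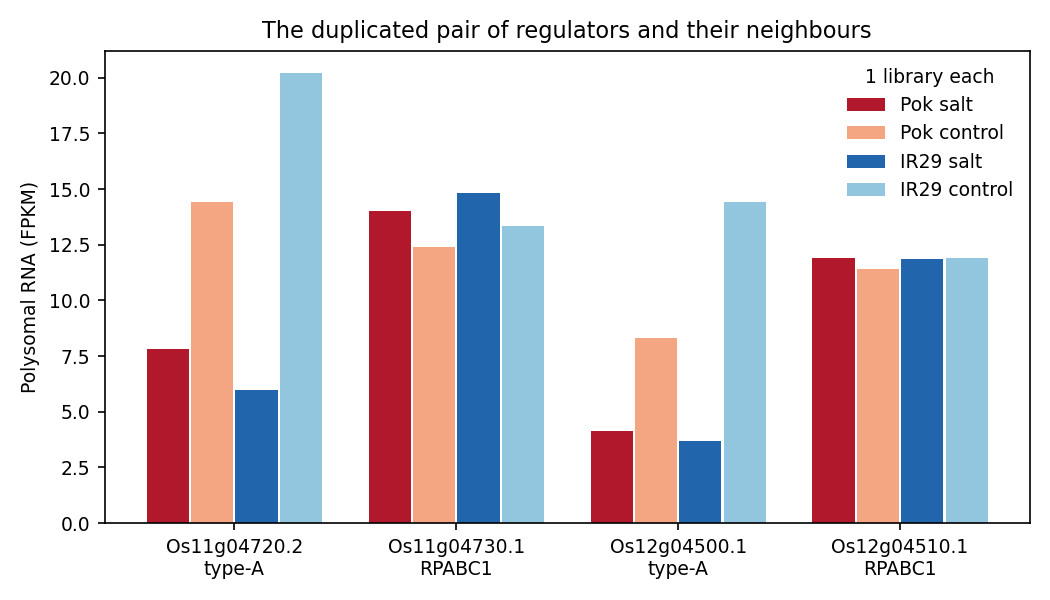
Polysomal level in FPKM (y axis) of the chromosome 11 and chromosome 12 regulators and of the RPABC1 gene next to each (x axis), 1 bar per library without error bars. The regulators stand at 5.996 and 3.67 FPKM in IR29 salt against 20.2 and 14.4 FPKM in IR29 control, while the neighbouring genes lie between 11.4 and 14.8 FPKM in all 4 libraries.

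OsRR1 (Os04g36070.1) was measured in IR29 only. It is known in rice as a gene that the crown root factor CRL5 switches on. It had 2.12 FPKM in IR29 salt against 6.17 FPKM in IR29 control, a 2.91-fold lower level (log2 ratio -1.20), and was listed at 0 in both Pok libraries. The assembled locus around it (chromosome 4, 21834267 to 21858473) spans several genes, and none of its rows had a value in Pok. Of the 15 rows there, 13 were above 0 in both IR29 libraries and 0 were above 0 in Pok salt or Pok control. Among them, Os04g36054.1, annotated as auxin response factor 9, had 6.89 FPKM in IR29 salt and 4.97 FPKM in IR29 control, and a row that overlaps OsRR1 without matching its structure had 14.9 FPKM in IR29 salt and 18.4 FPKM in IR29 control. Such a gap was rare but not confined to this locus. Of 2258 assembled regions with at least 5 rows above 0 in both IR29 libraries, 25 (1.11%) had every such row at 0 in both Pok libraries, and of the 11119 annotated transcripts that reached 5 FPKM in an IR29 library, 103 (0.926%) were listed at 0 in both Pok libraries. Gaps in the other direction were not counted. An example is Os08g33820.1, a chlorophyll A-B binding protein listed at 0 in both IR29 libraries. It had 693 FPKM in Pok salt and 769 FPKM in Pok control. Why OsRR1 and its neighbours were listed at 0 was not tested, and no fold is given between genotypes. When the overlapping row was added, the IR29 log2 ratio was -0.50 and no longer passed the 2-fold limit.

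OsRR6 (Os04g57720.1, chromosome 4, 34190872 to 34192251) stood apart from the lower members. Rice plants that overproduce OsRR6 are known to respond weakly to cytokinin. It had 12.8 FPKM in Pok salt and 14.6 FPKM in Pok control, and 9.66 FPKM in IR29 salt and 9.46 FPKM in IR29 control. The log2 ratio was -0.18 in Pok and 0.03 in IR29, where the sign turned after median centring (-0.21) and upper-quartile scaling (-0.29). OsRR6 was the highest member in every library except IR29 control, where it ranked below Os11g04720.2, Os12g04500.1 and OsRR4.

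OsRR4 (Os01g72330.1, chromosome 1, 41941745 to 41961744) lay between these patterns. It had 6.72 FPKM in Pok salt against 10.7 FPKM in Pok control, and 5.98 FPKM in IR29 salt against 10.3 FPKM in IR29 control. The levels of both genotypes were similar, and the salt libraries were 1.59-fold lower in Pok (log2 ratio -0.60) and 1.72-fold lower in IR29 (log2 ratio -0.69), within the 2-fold limit. After the libraries were centred on the median ratio, the IR29 value was 2.06-fold lower and passed it. The assembled locus also holds Os01g72340.1, annotated as a beta-galactosidase, which had 6.17 FPKM in Pok salt and 4.13 FPKM in Pok control, and 8.29 FPKM in IR29 salt and 4.99 FPKM in IR29 control.

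The remaining 3 members stayed below 5 FPKM in every library and were not considered. OsRR3 (Os02g58350.1, chromosome 2, 35683378 to 35684845) had 0.628 FPKM in Pok salt and 0.651 FPKM in Pok control, and 0.726 FPKM in IR29 salt and 1.42 FPKM in IR29 control. A row on the opposite strand of OsRR3 had 0.318 to 0.555 FPKM, and since the library preparation described in the methods has no step that marks strand, reads of the 2 strands cannot be told apart. OsRR5 (Os04g44280.1, chromosome 4, 26042090 to 26043309) had 0.355 FPKM in Pok salt and 1.57 FPKM in Pok control, and 0.440 FPKM in IR29 salt and 0.919 FPKM in IR29 control. OsRR7 (Os07g26720.1, chromosome 7, 15439873 to 15445753) had 0.376 FPKM in Pok salt and 1.34 FPKM in Pok control, and 0.207 FPKM in IR29 salt and 0.445 FPKM in IR29 control. A splice variant of OsRR7 had 0.164 FPKM in Pok salt and 1.83 FPKM in Pok control, and 0.208 FPKM in IR29 salt and 1.03 FPKM in IR29 control. All 3 genes were thus scarce on polysomes, and for OsRR5 and OsRR7 the salt libraries held the lower value in both genotypes.

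The size of the salt difference was set side by side between genotypes, since Pok is the tolerant and IR29 the sensitive genotype. For 5 of the 8 members with a value in both genotypes the log2 ratio was less negative in Pok, and for 3 it was lower in Pok; 7 of the 8 were below 0 in both. The difference of the log2 ratios, Pok minus IR29, was 0.87 for Os12g04500.1, 0.79 for Os11g04720.2, 0.47 for OsRR3, 0.34 for OsRR2 and 0.09 for OsRR4. It was -0.20 for OsRR6 and -0.51 each for OsRR5 and OsRR7. Among the well expressed members, the chromosome 11 and 12 pair, which may share reads, had the largest of these values, except when all assembled rows of a locus were summed, which gave 1.05 for OsRR2 against 0.87 for Os12g04500.1 and 0.73 for Os11g04720. With 1 library per condition, these differences could not be tested.

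**Figure D3:**
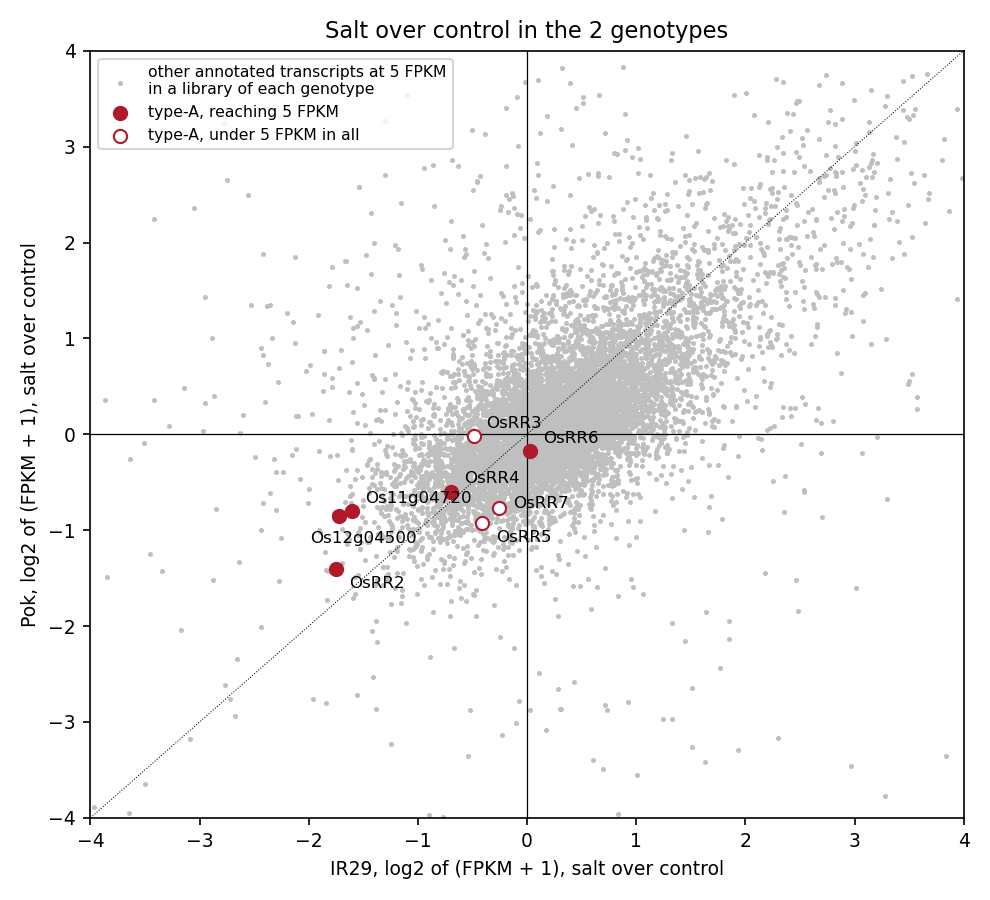
Log2 ratio of FPKM plus 1, salt over control, in IR29 (x axis) and in Pok (y axis), for the 8 type-A regulators with a value in both genotypes (red; filled where a library reached 5 FPKM, open where none did) and for 10092 annotated transcripts that reached 5 FPKM in a library of each genotype (grey; 85 lie outside the axes). Of the 8 red points, 7 lie below 0 on both axes, OsRR2 lowest at -1.75 in IR29 and -1.40 in Pok, and the dotted line marks equal ratios.

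Libraries of the same treatment were also compared between genotypes. Pok control against IR29 control gave 6 members considered, of which 1 was lower, OsRR1 at a listed 0, and 0 were higher, beside 6.62% lower and 11.0% higher among 10625 annotated transcripts. The median log2 ratio of the 9 was 0.05 and turned to -0.25 after median centring; without OsRR1 it was 0.17 before centring, beside 0.32 over all transcripts considered. Os12g04500.1 had 8.31 FPKM in Pok control against 14.4 FPKM in IR29 control, a ratio within the limit (1.73-fold lower) that passed it after median centring (2.18-fold lower), when 9.16% of all transcripts were lower and 5.77% higher. Pok salt against IR29 salt gave 3 members considered and 0 called in either direction, beside 6.76% lower and 9.87% higher among 11679 annotated transcripts; after centring the members gave 0 calls as well, beside 8.02% lower and 7.78% higher.

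The upstream part of the pathway was then examined through lists of loci and annotation words, with the same limits. For the salt calls below, all transcripts considered gave 19.1% higher and 5.96% lower in IR29. In Pok they gave 15.7% higher and 5.61% lower. Among 5 histidine kinases, the receptor class, only Os01g69920.1 reached 5 FPKM. It had 31.8 FPKM in Pok salt against 17.5 FPKM in Pok control (1.81-fold higher, within the limit), and 31.5 FPKM in IR29 salt against 11.1 FPKM in IR29 control, and was 2.83-fold higher in IR29. Among 5 phosphotransfer proteins, 2 reached 5 FPKM and 0 were called in either genotype. Os09g39400.1 had 33.7 FPKM in Pok salt and 28.9 FPKM in Pok control, and 35.5 FPKM in IR29 salt and 25.5 FPKM in IR29 control. Os08g44350.1 lay between 11.9 and 15.1 FPKM in all libraries.

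The loci listed as type-B regulators, the DNA-binding class, were read next, and few of them could be considered. Of the 13 loci searched, 10 were found and 4 reached 5 FPKM. All 4 were considered in each genotype, and 3 were higher with salt in IR29 and 1 in Pok, with 0 lower in either. Of all transcripts considered, 19.1% were higher and 5.96% lower in IR29, and 15.7% and 5.61% in Pok. Beside such lower shares, 0 of 4 says little. Os02g55320.1 in IR29 and Os08g35620.1 in both genotypes reached 5 FPKM in the salt library only. They could be called in no direction but higher. The file annotates 3 of the 4 only as two-component response regulators and Os08g35620.1 as an HD domain containing protein. Os03g12350.1 had 15.7 FPKM in Pok salt and 10.4 FPKM in Pok control (1.51-fold higher, within the limit), and 16.5 FPKM in IR29 salt against 6.57 FPKM in IR29 control, where it was 2.51-fold higher. Os02g55320.1 had 11.1 FPKM in Pok salt and 8.10 FPKM in Pok control, and 11.7 FPKM in IR29 salt against 4.81 FPKM in IR29 control, and was 2.44-fold higher in IR29. Os08g35620.1 passed the limit in both genotypes, with 9.16 FPKM in Pok salt against 2.45 FPKM in Pok control and 7.13 FPKM in IR29 salt against 3.45 FPKM in IR29 control. Os02g08500.1 had 14.3 FPKM in Pok salt and 9.22 FPKM in Pok control, and 21.7 FPKM in IR29 salt and 13.0 FPKM in IR29 control, within the limit in both.

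A further 4 loci listed as type-A regulators added little signal. OsRR8 (Os08g28900) and 2 others were listed at 0 in all libraries. The remaining one, Os02g42060.1, had 1.52 FPKM in Pok salt against 5.25 FPKM in Pok control and was lower there. It reached 5 FPKM in Pok control only and could be called in no direction but lower. In IR29 it had 2.12 FPKM in the salt library and 3.14 FPKM in the control library. Of the 8 other proteins with response regulator wording, only 3 were considered in each genotype, and 2 were listed at 0 in all libraries. The 3 considered were called in neither direction by salt. Of all transcripts considered, 19.1% were higher and 5.96% lower in IR29, and 15.7% and 5.61% in Pok. The most abundant of them, Os09g36220.1, had 60.7 FPKM in Pok salt and 62.1 FPKM in Pok control, and 58.2 FPKM in IR29 salt and 30.4 FPKM in IR29 control. Pok control exceeded IR29 control by at least 2-fold for Os09g36220.1 and for Os03g17570.2, which stood at 17.5 FPKM in Pok control against 8.26 FPKM in IR29 control. In that comparison 11.0% of all transcripts considered were higher in Pok control.

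Cytokinin level is set by enzymes that make, activate, store and break down the hormone, and these were described in the same way. Of 10 cytokinin dehydrogenases, which degrade cytokinin, 2 reached 5 FPKM, and 1 was higher with salt in each genotype. Of all transcripts considered, 15.7% were higher in Pok and 19.1% in IR29. Both dehydrogenases reached 5 FPKM in the salt library only, in each genotype, and could be called in no direction but higher. Os08g35860.1 had 12.5 FPKM in Pok salt against 4.17 FPKM in Pok control, where it was 3.01-fold higher, and 7.66 FPKM in IR29 salt and 4.03 FPKM in IR29 control, within the limit. Os01g71310.1 had 5.19 FPKM in Pok salt and 3.11 FPKM in Pok control, within the limit, and 11.2 FPKM in IR29 salt against 4.11 FPKM in IR29 control, where it was 2.73-fold higher. The called dehydrogenase thus differed between the genotypes, although both transcripts had the larger value in the salt library of each.

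Of 37 transcripts annotated as cytokinin glucosyltransferases, enzymes that attach glucose to the hormone, 7 were considered in Pok, with 3 higher and 0 lower, and 9 in IR29, with 3 higher and 1 lower, beside 15.7% of all transcripts higher in Pok and 19.1% in IR29. Lower were 5.61% of all transcripts in Pok and 5.96% in IR29. The same 3 transcripts were higher in both genotypes. In Pok all 3 reached 5 FPKM in the salt library only, as did Os07g13800.1 and Os02g36840.1 in IR29. Such a transcript could be called in no direction but higher. Os07g13800.1 had 8.25 FPKM in Pok salt against 0.925 FPKM in Pok control, and 10.4 FPKM in IR29 salt against 1.61 FPKM in IR29 control. Os02g36840.1 had 5.31 FPKM in Pok salt against 0.854 FPKM in Pok control, and 6.66 FPKM in IR29 salt against 1.77 FPKM in IR29 control. Os11g25454.1 had 11.6 FPKM in Pok salt against 3.07 FPKM in Pok control, and 11.1 FPKM in IR29 salt against 5.21 FPKM in IR29 control. The one lower in IR29, Os07g30610.1, named here after its values were seen, had 2.29 FPKM in IR29 salt against 5.67 FPKM in IR29 control. It had 3.46 FPKM in Pok salt and 3.70 FPKM in Pok control. Because it reached 5 FPKM in IR29 control only, it could be called in no direction but lower. The annotation does not show which sugar acceptors these enzymes use in the plant.

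The 9 transcripts annotated as isopentenyl transferases, the class that starts cytokinin synthesis and also modifies transfer RNA, all stayed below 5 FPKM. The 5 transcripts with a lysine decarboxylase domain wording, a family that in rice includes the cytokinin-activating enzyme LOG, gave 1 call in each genotype. In each genotype 3 were considered. Of all transcripts, 15.7% were higher and 5.61% lower in Pok, and 19.1% and 5.96% in IR29. Os10g33900.1 had 6.53 FPKM in Pok salt against 16.0 FPKM in Pok control and was lower there, whereas it had 9.48 FPKM in IR29 salt and 9.18 FPKM in IR29 control. Os03g01880.1 had 19.9 FPKM in IR29 salt against 8.72 FPKM in IR29 control and was higher there, whereas it had 23.6 FPKM in Pok salt and 16.5 FPKM in Pok control. The family thus showed no common direction.

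**Figure D4:**
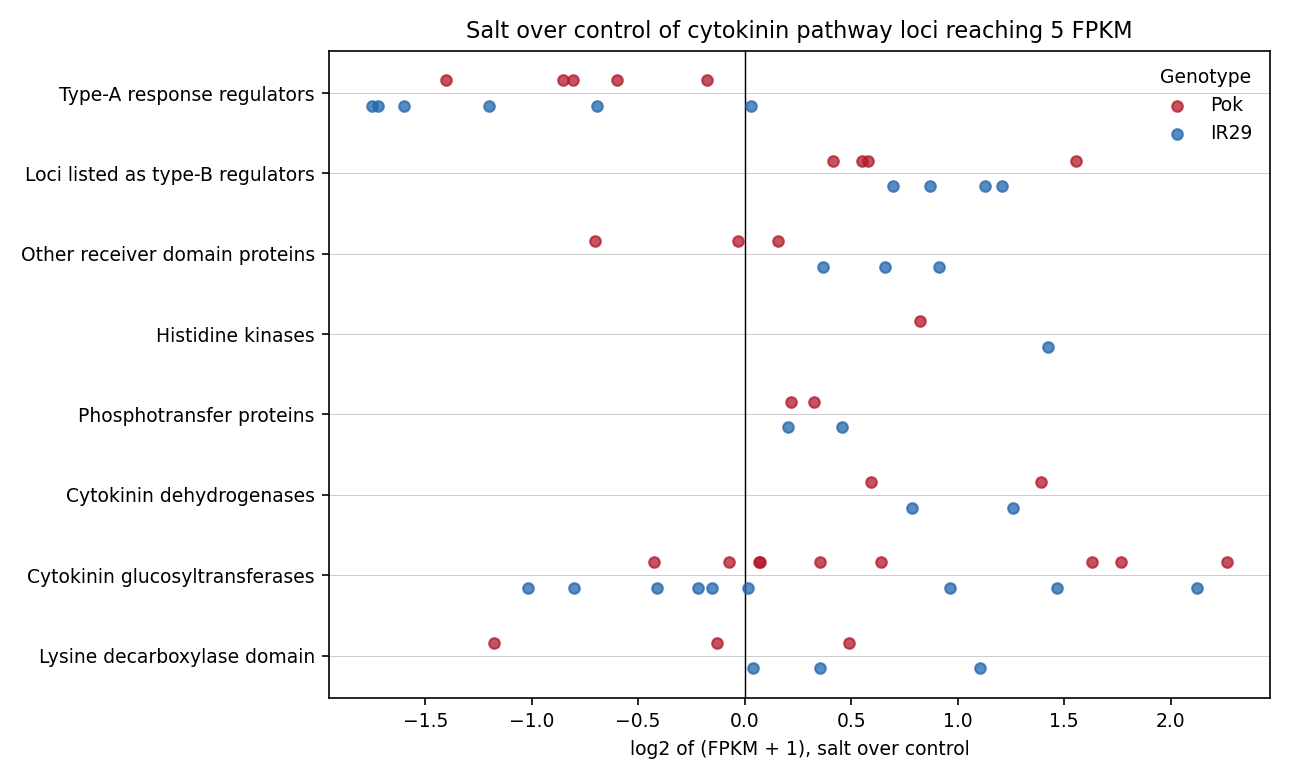
Log2 ratio of FPKM plus 1, salt over control (x axis), of each locus that reached 5 FPKM in a library, by list (y axis), with Pok above IR29 in each row and 1 point per transcript. Type-A regulators lie between -1.75 and 0.03, whereas the 4 loci listed as type-B regulators all lie above 0 in both genotypes. Some points entered only through the library where they were high. These were OsRR2 and Os12g04500.1 (control, both genotypes), OsRR1 (control, IR29), Os08g35620.1 (salt, both genotypes) and Os02g55320.1 (salt, IR29). The median of all transcripts considered was 0.31 in IR29 and 0.10 in Pok.

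Transcripts read as markers of seedling parts differed with treatment as well, in ways that were unlike between genotypes. The paper counts some of them, such as Os02g51110 and Os02g40730, among its salt-responsive genes. These lists therefore need not track the amount of a tissue. Of all transcripts considered, 5.61% were lower and 15.7% higher in Pok, and 5.96% and 19.1% in IR29. Summed over 14 chlorophyll A-B binding proteins, which mark green shoot tissue, the level was 2857 FPKM in Pok salt against 4222 FPKM in Pok control. In IR29 it was 913 FPKM in the salt library against 2579.5 FPKM in the control library. Os08g33820.1, listed at 0 in both IR29 libraries, adds to the Pok sums only. Of these proteins, 1 of 13 considered was lower in Pok and 10 of 12 considered were lower in IR29. The 4 Rubisco small chain transcripts summed to 854 FPKM in Pok salt against 1876 FPKM in Pok control, and to 267 FPKM in IR29 salt against 2275 FPKM in IR29 control. Of 3 considered in each genotype, 1 was lower in Pok and 2 in IR29, whereas Os02g05830.1 had the larger value in both salt libraries. The 7 root-expressed genes, aquaporins and ammonium transporters among them, summed to 247 FPKM in Pok salt against 86.6 FPKM in Pok control (3 higher and 0 lower of 5 considered). In IR29 they summed to 57.8 FPKM in the salt library against 182 FPKM in the control library (0 higher and 5 lower of 6 considered). The sums of both shoot lists were thus lower in the salt library of each genotype, sums that a few abundant transcripts carry, whereas the root-expressed sum was higher in Pok salt and lower in IR29 salt than in the controls.

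Markers of dividing cells were read in the same way. The 33 core histones summed to 1512 FPKM in Pok salt against 2868 FPKM in Pok control, and to 1059 FPKM in IR29 salt against 1696 FPKM in IR29 control. Of 28 considered in Pok 8 were lower, and of 27 considered in IR29 5 were lower, with 0 higher in either. The 81 transcripts with cyclin wording summed to 350 FPKM in Pok salt against 449 FPKM in Pok control, and to 312 FPKM in IR29 salt and 316 FPKM in IR29 control. Of 32 considered in Pok, 3 were lower and 0 higher, and of 28 considered in IR29, 4 were lower and 1 higher. The cyclin wording also took in cyclin-dependent kinase inhibitors, cyclin-like F-box proteins and cyclin-related proteins. This list therefore need not track dividing cells. Beside both lists, 5.61% of all transcripts were lower and 15.7% higher in Pok, and 5.96% and 19.1% in IR29. The part that tissue makeup had in the type-A values was not tested.

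The profile of the type-A members was last set against 9454 other annotated transcripts, over the 4 libraries. The mean log2 profile of the 6 members that reached 5 FPKM was used, and likeness was the distance between profiles after each was centred on its own mean, where 0 means the same shape. The closest were Os07g32390.1, a targeting protein-related gene (0.169), Os01g12210.1, annotated as an aluminum-activated malate transporter (0.192), Os08g02340.1, a 60S acidic ribosomal protein (0.192), Os06g48810.1, annotated as OsHKT2 (0.194), and Os01g61970.1, annotated with a transmembrane receptor domain (0.196). For scale, Os06g48810.1 had 1.65 FPKM in Pok salt and 3.45 FPKM in Pok control, and 2.17 FPKM in IR29 salt and 5.13 FPKM in IR29 control. This profile rests on OsRR1, listed at 0 in Pok: without it, none of the 5 remained among the closest, and the nearest to the profile of the other 5 members were Os02g18450.1, a GTP-binding protein (0.0788), and Os06g04920.1, a zinc finger protein (0.0841), both named after their values were seen. With 4 libraries, many transcripts can take such a shape.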

How the data were processed

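Polysomal poly(A) RNA of 4 samples was sequenced on an Illumina platform. According to the methods, the authors used TopHat to align reads to rice genome release MSU v6.1, Cufflinks and Cuffmerge to build a joint assembly, Cuffcompare to class it and Cuffdiff to quantify it; versions are not given in the sources used here. The authors deposited FPKM per assembled transcript, with its class, annotation text and assembled locus, without counts. Locus starts were read as 0-based, and 1 was added. The deposited table itself gives no depth, although the paper lists raw, filtered and mapped reads for each polysomal library. Spacing of values up to 0.15 FPKM, a pattern held by 8.27% to 9.33% of the transcripts used, put the depth relative to IR29 control at 44.5% for Pok salt, 53.5% for Pok control and 77.7% for IR29 salt; whole reads were not recovered and no counting interval is given.

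Samples were grouped by genotype and treatment. For each of 4 comparisons, annotated transcripts reaching 5 FPKM in 1 library were called at a 2-fold ratio, the size limits of the methods, whose FDR limit could not be applied. A pseudocount of 1 was used for log2 ratios, and values of 0 were kept. Members and lists were chosen with earlier results of these data known. All members are named, with up to 4 members per list, those with the largest log2 ratio in any comparison among members reaching 5 FPKM, and the 5 transcripts nearest in profile. Alternatives were a minimum of 1 or 10 FPKM, limits of 1.5-fold or 4-fold, median centring, upper-quartile scaling, pseudocounts of 0.1 or 5, and summing transcripts or assembled rows of a locus; leaving out OsRR1 and summing the chromosome 11 and 12 pair were added after seeing the data, as were a limma fit of the salt effect with genotype as a block and a likeness profile without OsRR1. Gene names were set against RefSeq. Python 3.11.15, pandas 2.3.3, NumPy 2.4.6, matplotlib 3.10.9, R 4.3.3 and limma 3.58.1 were used.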

Additional observations from a re-analysis of the deposited data

Results flagged for a closer look

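Outside the root-expressed list, salt over control had opposite signs in the genotypes for 7 of the transcripts named. The median of that list also had opposite signs. Each condition had 1 library, and none of these differences was tested. OsRR6 (Os04g57720.1) had a log2 ratio of -0.18 in Pok and 0.0281 in IR29, both small. Among other receiver domain proteins, Os09g36220.1 had -0.0322 in Pok and 0.91 in IR29, and Os11g05930.1 had -0.70 in Pok and 0.37 in IR29. The glucosyltransferase Os04g25800.1 had 0.35 in Pok and -0.15 in IR29. Of the lysine decarboxylase domain proteins, Os10g33900.1 had -1.17 in Pok and 0.0411 in IR29, and Os05g46360.1 had -0.13 in Pok and 0.35 in IR29. The RPABC1 gene Os12g04510.1, next to the chromosome 12 regulator, had 0.0540 in Pok and -0.00675 in IR29. The median of the 7 root-expressed genes was 1.45 in Pok and -1.40 in IR29. In that list 7 genes were above 0 in Pok and 6 were below 0 in IR29. Some of them lay further apart than the medians. Os02g51110.1 had 0.73 in Pok and -2.37 in IR29, and Os02g40730.1 had 2.54 in Pok and -0.49 in IR29.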

How the results depend on the processing

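Each count below is a number of type-A members. For salt over control in Pok, 2 were lower; the number was 4 with a minimum of 1 FPKM or a 1.5-fold limit, 1 with a minimum of 10 FPKM or with the chromosome 11 and 12 pair summed, and 0 with a 4-fold limit. For salt over control in IR29, 4 were lower; the number was 2 with a minimum of 10 FPKM and 1 with a 4-fold limit. For Pok control over IR29 control, 1 was lower and 0 higher. The number lower was 2 with a minimum of 1 FPKM, a 1.5-fold limit, median centring or upper-quartile scaling, and 0 with a minimum of 10 FPKM or without OsRR1. The number higher was 1 with a minimum of 1 FPKM or a 1.5-fold limit. For Pok salt over IR29 salt, none was called in either direction; 1 was lower with a minimum of 1 FPKM, and 1 was lower and 1 higher when all assembled rows were summed. Fewer or more members pass a different minimum or limit by construction. With genotype as a block, 3 members were lower at a limma adjusted p under 0.05, also with pseudocounts of 0.1 and 5, and 0 after median centring, where their adjusted p was 0.0638 to 0.0978, 4 passed an unadjusted p under 0.05, and limma estimated 3.47 prior degrees of freedom against 11.1 without centring; the cause was not tested. The other 67 counts stayed within 1.5 times, and and 14 values of single members moved by over 1.5-fold, under other pseudocounts or summing of assembled rows. Signs turned only in values that passed no limit. The median of Pok control over IR29 control, 0.05, was -0.25 with median centring, -0.20 with upper-quartile scaling and -0.07 with all assembled rows summed. OsRR6 in IR29 was -0.21 with centring and -0.29 with upper-quartile scaling, against 0.03. In Pok control over IR29 control, OsRR4 was -0.25 and -0.20 under the same scalings, and OsRR2 was -0.00320 with centring and -0.07 with rows summed. OsRR3 in Pok was 0.02 with rows summed, against -0.02.

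Median centring moved all ratios by -0.26 in IR29, -0.06 in Pok, -0.33 between controls and -0.12 between salt libraries (log2). The share of higher calls among all called transcripts was 76.2% in IR29, against 59.9% after centring and 53.6% after upper-quartile scaling. In Pok it was 73.7%, against 69.8% and 59.1%. Between controls it was 62.4%, against 38.7% and 41.9%, and between salt libraries 59.3%, against 49.2% and 47.4%. No paired analysis was possible because replicates do not exist within a condition, apart from the fit with genotype as a block, and no replicate could be left out.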
